A study of Mus musculus with 15 samples.

Results

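The 10 genes described here encode parts of the cAMP, calcineurin and protein phosphatase 1 pathways of sperm: Adcy10, Gpr3, Prkaca, Prkar1a, Prkar2a, Ppp3cc, Ppp3r2, Spata33, Ppp1cc and Gsk3a. They were the rows of the deposited expression table whose Entrez Gene IDs map to these symbols, 10 of 23510 gene IDs. All 10 had a mean of at least 1 FPKM (fragments scaled to the length of the transcript and to the size of the library) over the 15 libraries and were tested together with the other genes above that level, 14514 in all.

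RNA was measured from testes of outbred ICR mice in 5 groups of 3 libraries each. For the injected groups, a lentivirus was placed in the testes of mice 5 weeks of age and the testes were taken 10 days later. MNC received the vector control, and M1, M3 and M5 received short hairpin RNAs against the muscarinic acetylcholine receptor genes Chrm1, Chrm3 and Chrm5, each as a mix of 3 hairpins. Con is a control whose handling and age the sources used here do not give. All groups share the ICR strain, and the 4 injected groups share the vector backbone. Neither the cell types infected nor the promoter that drives the hairpins is given in the sources used here, and the labels do not say that the 3 libraries of a group came from separate animals, so the p-values measure only the spread between these libraries.

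The summed FPKM of a library lay between 470243 and 513817, and no counts were used, so the absolute depth is unknown; the steps between low values gave relative depths of 0.977 to 1.03. The extraction text in the labels speaks of sperm, but Sertoli cell markers (369 to 680 summed FPKM) and Leydig cell markers (599 to 3051) were present in every library, as in a whole testis. For M5 replicate 2 the label's description points to another column, that of replicate 1, so the title was used to place it. The targeted transcripts did not check the labels: Chrm5 was 0.320 ± 0.0866 FPKM in M5 and 0.363 ± 0.115 in MNC (SD, n = 3 each), and Chrm1 and Chrm3 were lower than Chrm5 in every group. Chrm1 was 0.113 ± 0.0252 in M1 and 0.107 ± 0.00577 in MNC. Chrm3 was 0.0767 ± 0.0351 in M3 and 0.0367 ± 0.0231 in MNC, so neither mean was lower in its own hairpin group. M3 replicate 3 stood apart from the other M3 libraries, as described under the results it touches.

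Sperm depend on cAMP made inside the cell by the bicarbonate-activated soluble adenylyl cyclase, the product of Adcy10. The cAMP releases the catalytic subunit of protein kinase A (PKA, Prkaca) from regulatory subunits (Prkar1a, Prkar2a), which opens the way to flagellar movement and capacitation. Calcineurin, a calcium-activated phosphatase, has a sperm-specific pair of subunits (Ppp3cc, Ppp3r2) that Spata33 holds at the mitochondria, and in maturing sperm the phosphatase Ppp1cc and the kinase Gsk3a take part in the gain of motility.

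Prkaca and Gpr3 were the members called lower in M5 against MNC. Both have a cyclic AMP response element core, TGACG, in the window before a start site. So do Prkar1a and Gsk3a, which were not called, and 19.8% of all genes with a window. A part of the core in the differences was not tested. Gpr3 (gene ID 14748) lies on the minus strand at chr4:133209340-133212536 and Prkaca (gene ID 18747) on the plus strand at chr8:83972978-83996444 (GRCm38.p6, the primary assembly of mm10). The 250 bases before each annotated start site follow, from RefSeq on GRCm38.p6, with every copy of the core on either strand in capitals (CGTCA is the core read on the other strand). The Gpr3 window is chr4:133212537-133212786 on the minus strand, and the Prkaca windows are chr8:83972728-83972977 and chr8:83976633-83976882 on the plus strand.
Gpr3: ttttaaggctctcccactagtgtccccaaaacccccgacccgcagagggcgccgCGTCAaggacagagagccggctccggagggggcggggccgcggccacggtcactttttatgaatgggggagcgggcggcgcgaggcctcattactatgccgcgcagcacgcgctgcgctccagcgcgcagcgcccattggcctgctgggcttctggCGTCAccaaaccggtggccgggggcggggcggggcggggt
Prkaca, first start: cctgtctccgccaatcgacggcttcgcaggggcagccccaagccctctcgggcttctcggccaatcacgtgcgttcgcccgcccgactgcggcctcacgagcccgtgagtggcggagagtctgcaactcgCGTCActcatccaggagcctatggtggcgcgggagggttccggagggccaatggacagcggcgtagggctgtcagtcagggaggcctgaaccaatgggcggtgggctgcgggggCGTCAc
Prkaca, second start: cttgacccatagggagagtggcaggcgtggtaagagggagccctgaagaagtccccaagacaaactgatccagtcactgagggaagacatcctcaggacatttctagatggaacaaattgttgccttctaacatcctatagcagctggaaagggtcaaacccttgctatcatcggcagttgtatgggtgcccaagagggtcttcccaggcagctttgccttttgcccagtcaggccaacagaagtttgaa
In the Gpr3 window the cores lay 196 and 40 bases before the start, and in the first Prkaca window 120 and 6 bases before it. The second Prkaca window held none. The first Prkaca window and the Gpr3 window had a GC content of 68.8% and 70.8%, against 50.8% for the second Prkaca window and a median of 52.4% over all 32851 windows of 250 bases before a start. The FPKM values are summed per gene, so they do not say which Prkaca start was used.

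The full palindrome TGACGTCA stood in 1 of the 15 member windows of 250 bases before a start, that of the Prkar1a start site at base 109650949 of chromosome 11, where it lay 49 bases before the start. It also lies just after another annotated Prkar1a start, at base 109650862, whose own window ends before it. The surrounding bases, chr11:109650890-109650917 on the plus strand, are shown with the palindrome in capitals.
Prkar1a: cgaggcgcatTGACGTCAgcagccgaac
RefSeq windows existed for 9 of the 10 members, and Ppp3cc was not among them. Over the same 250 bases before each start, the palindrome was present in 508 of all 32851 windows (1.55%). The core, on either strand and counting the palindromes too, was in the windows of 4 members (Gpr3, Prkaca, Prkar1a and Gsk3a) and of 19.8% of all genes with a window. These matches are descriptions of letters, and no binding was measured.

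Taken over all 5 groups at once, 7 of the 10 genes differed between groups by limma's moderated F-test at an adjusted p under 0.05, where 33.6% of all genes tested did so (8 of 10 and 48.3% at an unadjusted p under 0.05). The 7 were Prkaca (limma adjusted p = 0.0046), Gsk3a (0.0077), Prkar2a (0.0089), Adcy10 (0.0123), Gpr3 (0.0164), Spata33 (0.0358) and Prkar1a (0.0460). Ppp3cc, Ppp3r2 and Ppp1cc did not pass. The members and lists were chosen with earlier results of these data known. Counts set beside the share of all genes, here and below, are therefore no test of an excess. The genes spanned a wide range of abundance. Spata33 (mean 596 FPKM over the 15 libraries) ranked 65th and Ppp1cc (523 FPKM) 79th of all 23510 gene IDs, while Gpr3 (1.30 FPKM) ranked 13733rd. Ppp3r2 averaged 134 FPKM, Ppp3cc 114, Adcy10 78.7, Prkar1a 78.3, Prkaca 56.9, Prkar2a 52.4 and Gsk3a 39.4. From the lowest to the highest group mean, Ppp1cc differed 1.06-fold, Prkar2a 1.81-fold and Gpr3 3.13-fold, and the other 7 genes 1.16-fold to 1.48-fold.

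**Figure D1:**
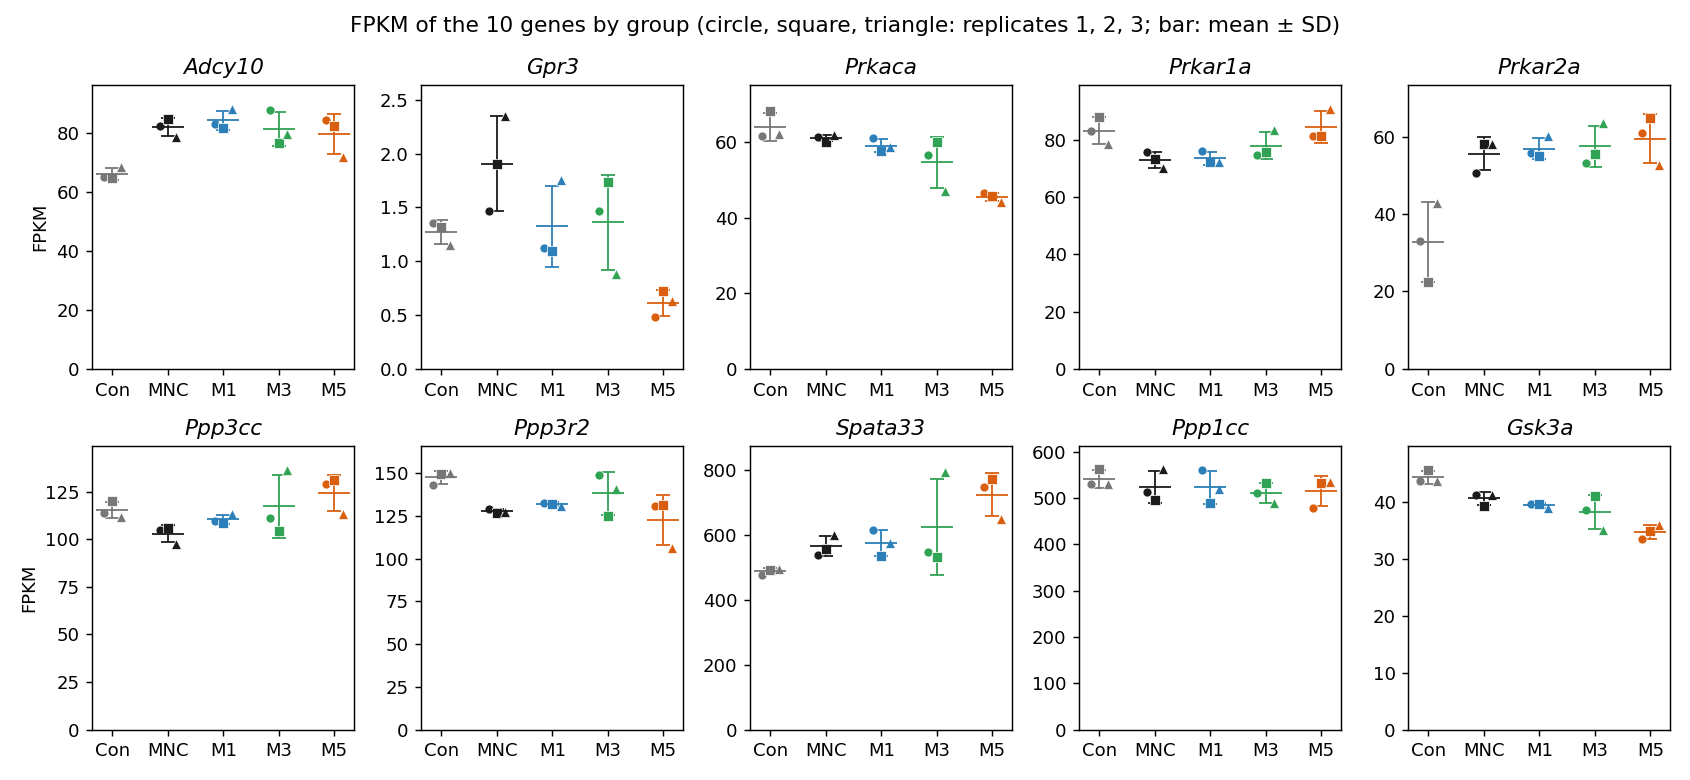
FPKM of each of the 10 genes (vertical axes from 0) in the 15 libraries by group; circles, squares and triangles are replicates 1, 2 and 3, and bars are mean ± SD (n = 3). All 3 M5 libraries lie below every other library for Prkaca and Gpr3, and all 3 Con libraries lie below every other library for Adcy10, Prkar2a and Spata33.

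Adcy10, the source of cAMP in sperm, was lower in Con testes than in any injected group and did not pass the test between injected groups. It measured 65.1, 64.8 and 68.5 FPKM in Con and 82.6, 84.9 and 78.8 FPKM in MNC. The injected groups overlapped one another, with values from 71.8 (M5 replicate 3) to 88.0 (M1 replicate 3). MNC was 1.24-fold above Con, a difference of 0.31 on the log2(FPKM + 1) scale on which every log2 difference here is given (SE 0.0481, limma adjusted p = 0.0194). The call was lost without MNC replicate 2, Con replicate 1 or Con replicate 2 (limma adjusted p = 0.0535, 0.0889 and 0.0604). In M5 against MNC the difference was -0.05 (limma adjusted p = 0.755). In bulk tissue, fewer cells of a type and less RNA per cell cannot be told apart, for this gene and for those that follow.

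Gpr3, a receptor that raises cAMP through the Gs protein without needing a ligand and is best known for holding oocytes in meiotic arrest, had low values throughout. It measured 0.48, 0.72 and 0.63 FPKM in M5 and 1.47, 1.90 and 2.35 in MNC. The M5 values were the lowest of the 15 libraries, the next being M3 replicate 3 at 0.88. Against MNC, the log2 difference of Gpr3 in M5 was -0.84 (95% interval -1.20 to -0.49, SE 0.148, limma adjusted p = 0.0335), and the M5 mean was 0.320 times the MNC mean. The call was lost without M5 replicate 1 or 2 or MNC replicate 2 or 3 (limma adjusted p 0.1002 to 0.113), with differences of -0.89 to -0.74. It was also lost with no filter on the mean FPKM. All M5 values lay under the filter level of 1 FPKM, which Gpr3 passed on its mean over the 15 libraries (1.30). The log2 figure understates the fold, since the added 1 is of the size of the values. M1 (1.12, 1.10 and 1.76), M3 (1.47, 1.74 and 0.88) and Con (1.36, 1.32 and 1.15) lay between, and their ranges overlapped. The gene shares 204 exonic bases (7.46%) with Cd164l2 on the opposite strand, and counting is not stated to use strand.

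Prkaca, the main catalytic subunit of PKA, had the lowest adjusted p of the 10 in M5 against MNC. It measured 46.5, 45.9 and 44.3 FPKM in M5 against 61.4, 60.2 and 61.9 in MNC. It was at 61.2, 57.6 and 58.7 in M1, and at 61.6, 68.4 and 62.2 in Con. The M5 group did not overlap any other, but M3 was split: replicates 1 and 2 were at 56.8 and 60.2, and replicate 3, at 47.1, was just above the highest M5 library. Prkaca fell by 0.42 in M5 against MNC (SE 0.0506, 95% interval -0.54 to -0.30, limma adjusted p = 0.0163) and by 0.37 in M5 against M1 (SE 0.0482, 95% interval -0.48 to -0.25, limma adjusted p = 0.0140), to 0.745 and 0.770 times those means. The first call was lost without M5 replicate 1 or 2 or MNC replicate 2 or 3 (limma adjusted p 0.0583 to 0.0903), and the other without M5 replicate 2, M1 replicate 1 or M1 replicate 3 (limma adjusted p 0.0596 to 0.0882), all with differences of -0.43 to -0.35. Against M3 the difference was -0.25 (limma adjusted p = 0.340), and it was -0.35 without M3 replicate 3 (limma adjusted p = 0.0676). Prkaca is relatively rich in G and C (54.9% of its bases, against a median of 49.4% over tested genes). With the trend of the differences on GC content removed, the M5 against MNC differences were -0.31 for Prkaca and -0.76 for Gpr3, each just short of the threshold (limma adjusted p = 0.0501 for both).

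Neither regulatory subunit was called in M5 against MNC. Prkar1a, the type I alpha subunit, measured 81.1, 81.3 and 90.7 FPKM in M5 and 75.6, 73.3 and 70.0 in MNC. The M5 libraries were all above the MNC libraries, but the difference of 0.21 missed the threshold (SE 0.0659, limma adjusted p = 0.117). Con libraries, at 83.1, 87.7 and 78.4, were also above MNC.

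Prkar2a, the type II alpha subunit that is anchored along the sperm tail, stood out through Con instead. It measured 33.1, 22.4 and 42.8 FPKM in Con and 50.6, 58.0 and 58.2 in MNC. All 12 injected libraries, from 50.6 to 64.9, were above the 3 Con libraries. MNC was 1.70-fold above Con, with a difference of 0.79 that just missed the threshold (SE 0.22, limma adjusted p = 0.0510), and the Con libraries had an SD of 10.2 FPKM. With all 5 groups in one fit the same difference passed (limma adjusted p = 0.00811). The summed FPKM of 6 elongating spermatid markers was 10517 in Con replicate 2, 15516 in Con replicate 1 and 20766 in Con replicate 3, the same order as Prkar2a, and 21832 to 30650 in the injected libraries. The part of this in the Prkar2a and Adcy10 differences was not tested.

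Within a library, the ratio of Prkaca to the 4 PKA regulatory subunits summed did not depend on the scaling between libraries. It does not remove the GC trend, since GC content was 54.9% for Prkaca, 45.7% for Prkar1a and 48.3% for Prkar2a. The part of that trend in the ratio was not tested. The ratio was 0.299 ± 0.00861 in M5 (0.290 to 0.308), 0.444 ± 0.0144 in MNC (0.428 to 0.453), 0.427 ± 0.0120 in M1 and 0.510 ± 0.0460 in Con (mean ± SD, n = 3). The M5 range lay under all other libraries except that M3 replicate 3, at 0.303, fell inside it. The ratio of Prkar2a to Prkar1a was 0.400 ± 0.146 in Con and 0.709 to 0.776 as group means in the injected testes. No test was made on these ratios.

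**Figure D2:**
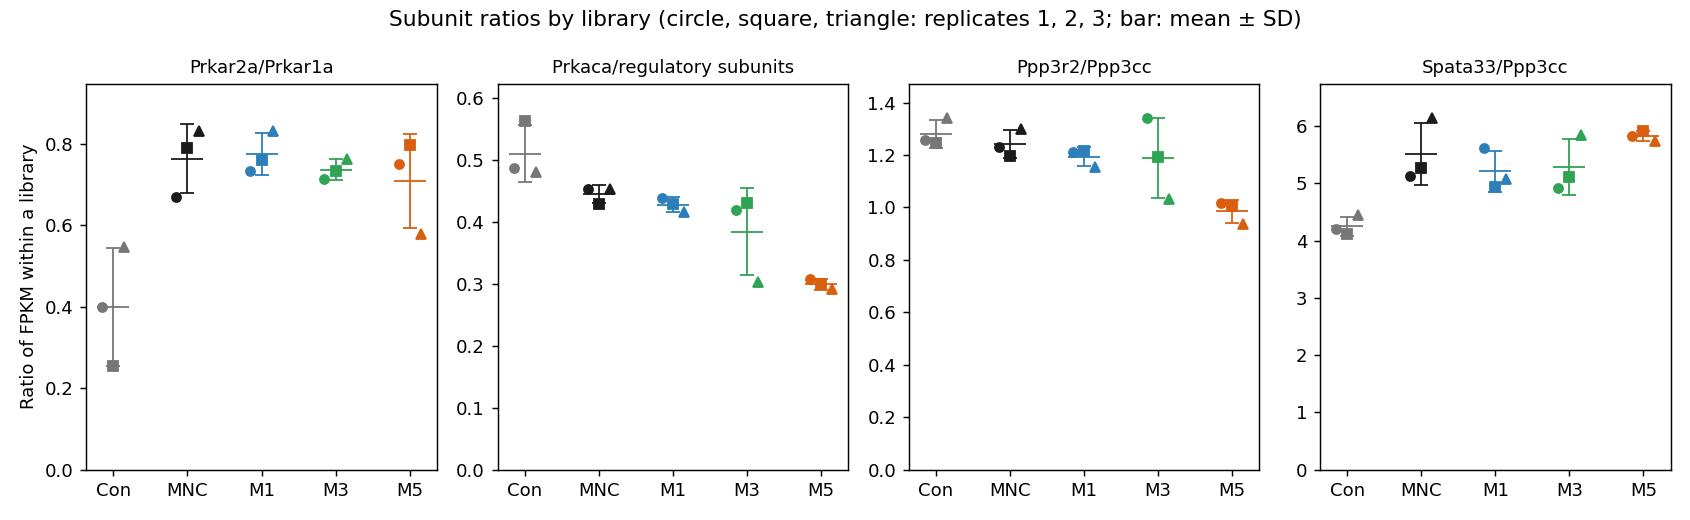
Ratios of FPKM within each library (vertical axes from 0) for 4 pairs of genes by group; circles, squares and triangles are replicates 1, 2 and 3, and bars are mean ± SD (n = 3). Prkaca over its regulatory subunits averages 0.299 in M5 and 0.444 in MNC, and Ppp3r2 over Ppp3cc averages 0.986 in M5 and 1.24 in MNC.

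Of the calcineurin genes, none was called in M5 against MNC by limma, while Ppp3r2 and Spata33 differed between MNC and Con. Ppp3cc, the catalytic subunit of sperm calcineurin, measured 129, 131 and 113 FPKM in M5 and 105, 106 and 97.7 in MNC. Every M5 library was above every MNC library, with a difference of 0.27 that did not pass (SE 0.0738, limma adjusted p = 0.0858). M3 replicate 3, at 136, was the highest of all libraries, while the other M3 libraries were at 111 and 105. In M1 (109, 109 and 113) the values were just above MNC as well, with no overlap.

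Ppp3r2, its regulatory partner, measured 131, 131 and 106 FPKM in M5 and 129, 127 and 127 in MNC, with M5 replicate 3 the lowest of all 15 libraries. Con was at 143, 149 and 150.3, M1 at 133, 132 and 131, and M3 at 149, 125 and 141, so that Con overlapped M3 but no other group. Ppp3r2 was lower in MNC than in Con by a log2 difference of -0.21 (SE 0.04, limma adjusted p = 0.0263), 0.865 times the Con mean. Centring each library on its median, which shifts this comparison as a whole, gave -0.12 (limma adjusted p = 0.141), and the call was lost with any library but MNC replicate 1 left out (limma adjusted p 0.0576 to 0.0914).

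Spata33, the adaptor that carries calcineurin to sperm mitochondria, was the most abundant of the 10. It measured 478, 494 and 497 FPKM in Con and 540.02, 558 and 600.2 in MNC, with no overlap, and MNC was above Con by 0.21 (SE 0.0534, limma adjusted p = 0.0425). That call held in 4 of 15 alternatives: the difference was 0.09 with quantile normalization (limma adjusted p = 0.220), and with any library but MNC replicate 1 left out it missed the threshold (limma adjusted p 0.0778 to 0.148). In M5 it measured 750.2, 775 and 650.4, above all MNC and M1 libraries (highest 615, M1 replicate 1). The M5 against MNC difference was 0.35, or 1.28-fold, and missed the threshold (SE 0.0857, limma adjusted p = 0.0634). M3 replicate 3 had the highest value of any library, 796, against 547 and 534 in the other M3 testes. The ratio of Spata33 to Ppp3cc was 4.25 ± 0.168 in Con and 5.21 to 5.83 as means of the injected groups. Spata33 lies within the annotated span of another gene, Gm20388, so its level is uncertain where reads could be split between them.

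Ppp1cc, whose gamma 2 form is the main protein phosphatase 1 of sperm, was the steadiest member, with a coefficient of variation of 5.17% over the 15 libraries. It measured 478, 532 and 535 FPKM in M5, 513, 496 and 563 in MNC and 531, 563 and 529.6 in Con. The groups overlapped in every comparison, and in M5 against MNC the 95% interval of the difference ran from -0.21 to 0.16. A change of a size inside that interval remains possible, and the interval is not a limit of detection.

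Gsk3a, a kinase needed for normal sperm movement, measured 33.5, 34.8 and 35.9 FPKM in M5, 41.2, 39.3 and 41.2 in MNC and 43.6, 45.5 and 43.6 in Con. M5 lay below MNC, M1 (39.5, 39.6 and 38.8) and Con without overlap, and M3 replicate 3 (35.1) lay inside the M5 range. The difference in M5 against MNC was -0.22 (SE 0.0573, limma adjusted p = 0.0775). Gsk3a had the highest GC content of the 10 (59.8%), and with the GC trend removed the difference was -0.03 (limma adjusted p = 0.824). It shares 820 exonic bases (28.3%) with the antisense gene 9130221H12Rik, so its level is uncertain where strand was not used.

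**Figure D3:**
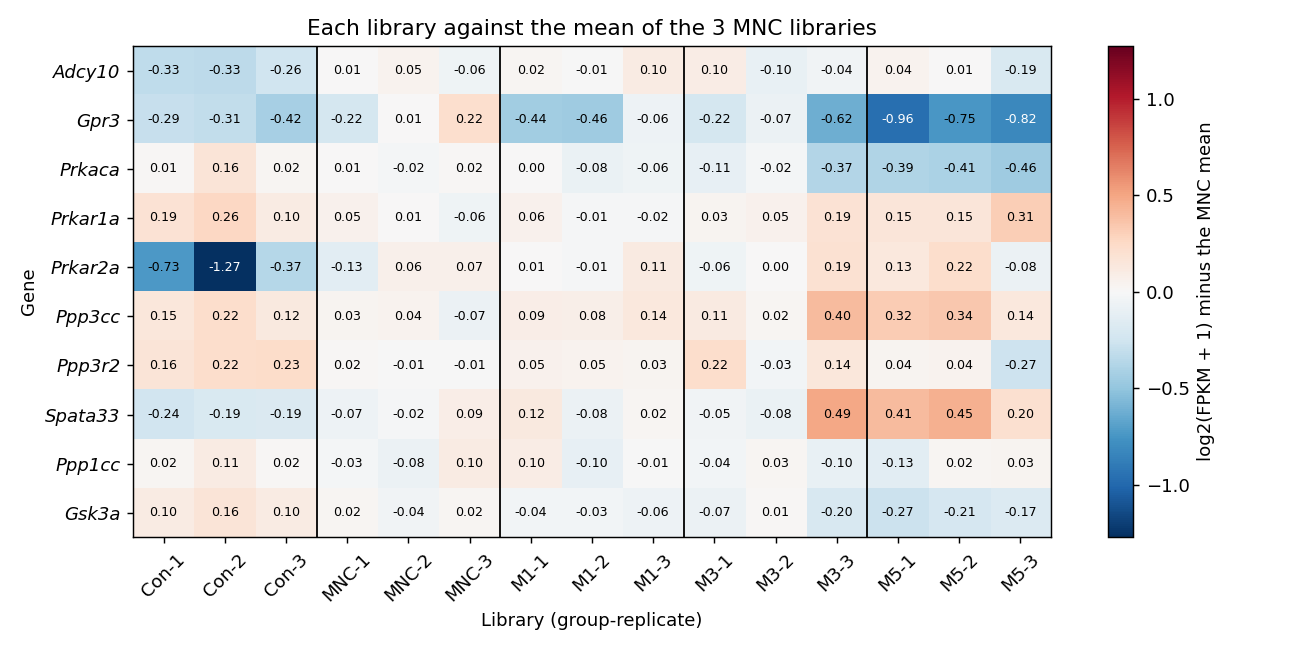
Log2(FPKM + 1) of each gene (rows) in each library (columns) minus the mean of the 3 MNC libraries; the colour scale and the printed values give the difference. The 3 M5 libraries and M3 replicate 3 have Prkaca at -0.46 to -0.37 and Gsk3a at -0.27 to -0.17, and Con has Prkar2a at -1.27 to -0.37.

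Counted over the 10 genes, M5 against MNC gave 2 called at an adjusted p under 0.05, both lower (Prkaca and Gpr3), where 5.65% of all genes tested were called, 2.76% higher and 2.89% lower. At an unadjusted p under 0.05 the count was 6 of 10, against 24.9% of all genes. The groups did not overlap for those 6 (Gpr3, Prkaca, Prkar1a, Ppp3cc, Spata33 and Gsk3a), against 32.1% of all genes. The median difference of the 10 was -0.04, and that of all genes 0.03. Spermatocyte markers summed to 437 to 467 FPKM in M5 and 364 to 376 in MNC, with 2 of 6 called higher (Hormad1 and Sycp1) and 2 of 6 at lower values (Piwil1 and Spo11, not called). Round spermatid markers summed to 867 to 909 and 937 to 999.8, lower in M5 without overlap. Of these 6 markers, 3 were lower, with Acr the only one called, and 3 were higher (Crem, Spaca1 and Tex101, not called). Red blood cell markers summed to 147.5 to 491 and 21.8 to 35.3 (3 of 5 called higher). In M5 replicates 1, 2 and 3, Sertoli cell markers summed to 369, 418 and 680, against 447 to 509 in MNC (3 of 7 higher). Leydig cell markers summed to 1743, 1472 and 3051, against 1558 to 1949 (4 of 6 higher). Macrophage markers summed to 41.6, 51.6 and 97.7, against 39.8 to 75.6 (4 of 5 tested higher). No marker of these last lists was called. Elongating spermatid markers overlapped at 21832 to 30650 and 22043 to 28183, with Odf1 the only one of 6 called, lower, and 3 of 6 higher (Prm1, Prm2 and Tnp1, not called). Their part in the differences was not tested.

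In M1 against MNC, limma called none of the 10 and 0% of all genes. At an unadjusted p under 0.05 these were 0 of the 10 and 5.94% of all genes. The groups did not overlap for 2 of 10, Ppp3cc and Ppp3r2, both higher in M1, against 12% of all genes. In M3 against MNC limma likewise called none of the 10, where the call rate over all genes was 0.00689%. None of the 10 had an unadjusted p under 0.05, against 9.43% of all genes. There only Prkaca did not overlap (17.1% of all genes), by the margin between 60.21 in M3 replicate 2 and 60.22 in MNC replicate 2. M3 replicate 3 was nearer to the M5 mean than to the mean of the other M3 libraries for 9 of the 10 genes, all but Ppp3r2, and lay inside the M5 range for 5. Without it, no member was called in M3 against MNC either, and Prkaca, Spata33 and Gsk3a differed from MNC by -0.06, -0.06 and -0.03.

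The injected groups were also set against one another. M5 against M1 gave 1 call, Prkaca, lower, where 6.75% of all genes were called, 3.23% higher and 3.52% lower. At an unadjusted p under 0.05 there were 6 of the 10 and 25.4% of all genes. The groups did not overlap for 6 of the 10 (Gpr3, Prkaca, Prkar1a, Ppp3cc, Spata33 and Gsk3a), against 33.7% of all genes. M5 against M3 gave none by limma (2 at an unadjusted p under 0.05, Gpr3 and Prkaca, which were also those without overlap), against call rates over all genes of 0.0138% adjusted and 14.3% unadjusted, and 22.9% not overlapping. M1 against M3 gave none by limma (0 of the 10 and 4.63% of all genes at an unadjusted p under 0.05, with 0% of all genes called), and all 10 overlapped, against 10.5% of all genes without overlap. M5 against MNC and M5 against M1 share the M5 libraries, so their like values are not independent.

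In MNC against Con, the comparison of vector injection with the control, 3 of the 10 were called, against 20.4% of all genes: Adcy10 and Spata33 higher, where 8.03% of all genes were called higher, and Ppp3r2 lower, where 12.4% were. For 8 of the 10 the groups did not overlap (46.5% of all genes), the exceptions being Prkaca and Ppp1cc. At an unadjusted p under 0.05 there were 8 of the 10 and 40.1% of all genes. Con also differed in the markers of its germ cells. Spermatocyte markers summed to 468 to 489 FPKM in Con and 364 to 376 in MNC, with 4 of 6 called lower in MNC, and all 6 elongating spermatid markers were higher in MNC, 2 of them called (Odf1 and Smcp). Epididymis markers summed to 18.01 to 46.1 FPKM in Con and 0.19 to 0.34 in MNC, with Crisp1 called lower and Lcn5 and Spag11b at 0 in MNC; among other libraries M3 replicate 1 reached 21.3. Peritubular myoid markers summed to 36.1 to 38.6 in Con and 26.5 to 29.2 in MNC (2 of 4 called lower, Acta2 and Cnn1). The part of these markers in the differences between MNC and Con was not tested.

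**Figure D4:**
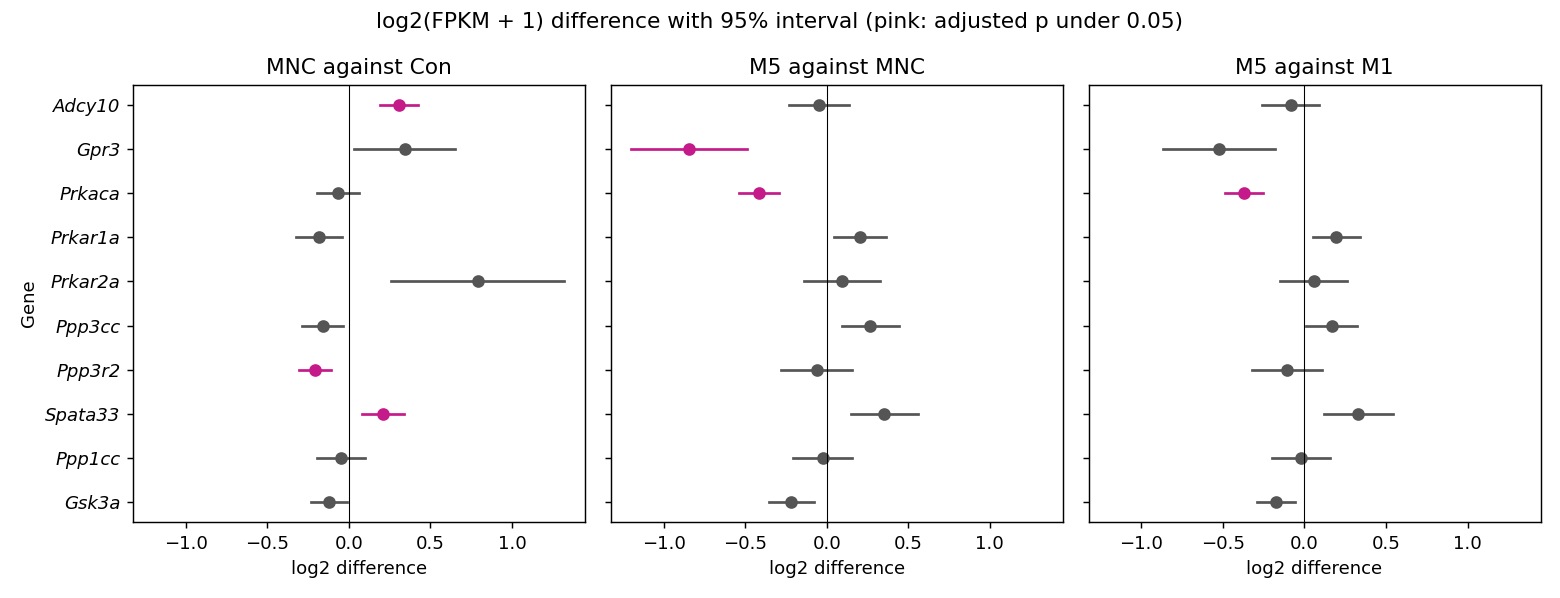
Log2(FPKM + 1) differences with 95% intervals for the 10 genes in MNC against Con, M5 against MNC and M5 against M1; pink points passed an adjusted p of 0.05 by limma (n = 3 per group). Prkaca passes at -0.42 and -0.37 in the M5 comparisons, and Gpr3 at -0.84 in M5 against MNC.

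Set beside their paralogs, several of the 10 genes made up most of the FPKM of their families. Prkaca held 92.4% of the PKA catalytic FPKM on average over the 15 libraries (87.1% to 94.4%), the remainder being Prkacb. Ppp3r2 held 90.6% (83.7% to 92.7%) against Ppp3r1. Ppp1cc held 91.2% (88.3% to 92.8%) of the PP1 catalytic genes. Adcy10 held 88.5% (84.6% to 91.4%) of the 10 adenylyl cyclases, and Gpr3 92.9% (81.4% to 98.6%) of Gpr3, Gpr6 and Gpr12, at low absolute levels.

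The other families were more mixed. Ppp3cc held 71.4% of the calcineurin catalytic FPKM (69.2% to 74.9%), with Ppp3ca at 22.2% and Ppp3cb at 6.41%. Gsk3a held 66.0% ± 0.634 of the GSK3 FPKM in Con, 64.9% ± 1.19 in MNC, 63.6% ± 0.992 in M1, 62.1% ± 1.74 in M3 and 61.3% ± 0.621 in M5 (SD, n = 3), and its Con and M5 ranges did not overlap. Among the regulatory subunits of PKA, Prkar2a held 25.9% ± 7.34 in Con and 40.4% ± 2.72 in MNC, and Prkar1a 66.1% ± 5.82 and 53.0% ± 2.44. Prkar1b and Prkar2b together were minor, at 2.50% and 3.93% on average. No test was made on the shares.

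**Figure D5:**
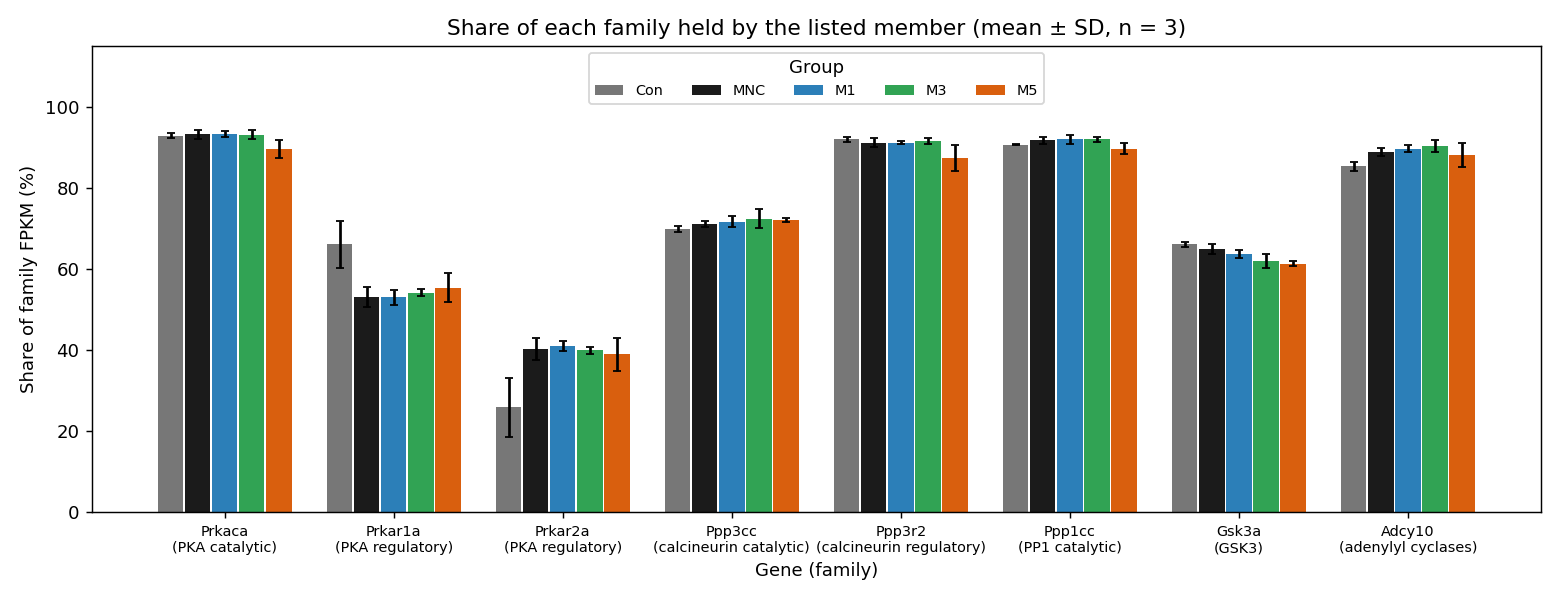
Share of the summed FPKM of its gene family (percent, vertical axis from 0) held by 8 of the genes in each group; bars are means and lines are SD (n = 3 libraries). The Prkar2a share averages 25.9% in Con and 40.4% in MNC, and Ppp3r2 87.3% in M5 and 91.2% in MNC. M5 replicates 1, 2 and 3 have Ppp3r2 shares of 89.0%, 89.3% and 83.7%, and MNC libraries 90.4% to 92.3%.

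Of 75 other genes of these pathways, 65 were tested. In M5 against MNC, 1 was called higher and 5 lower of these 65, where 2.76% of all genes were called higher and 2.89% lower. Pkib, an inhibitor of the PKA catalytic subunit, was higher at 51.8 ± 4.07 FPKM against 31.4 ± 1.69 (difference 0.70, limma adjusted p = 0.0133). Among those lower, 3 encode proteins found at the fibrous sheath of the tail: Cabyr (279 ± 7.40 against 364 ± 12.9 FPKM), Ropn1l (844 ± 39.4 against 1092 ± 50.8) and Ropn1 (268 ± 16.8 against 334 ± 1.72), with differences of -0.38, -0.37 and -0.32 (limma adjusted p = 0.0211, 0.0363 and 0.0400). Ppp1r10, a nuclear PP1 targeting subunit, was lower at 17.9 ± 2.41 against 40.6 ± 4.39 FPKM (difference -1.14, limma adjusted p = 0.0120), and so was Pde4a, a cAMP phosphodiesterase (-0.35, limma adjusted p = 0.0491). The list's median difference was 0.03, and that of all genes 0.03.

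By role, 5.65% of all genes were called in M5 against MNC. Of the 13 genes listed with the PKA anchors and inhibitors, 4 were called (Pkib higher, and Cabyr, Ropn1 and Ropn1l lower). That list also holds Cabyr, Ropn1, Ropn1l and the kinase Prkx, which are neither anchors nor inhibitors. None of its Akap genes, the anchors, was called. Called as well were 1 of 6 tested phosphodiesterases and 1 of 9 PP1 partners. None of 14 tested paralogs, 7 cAMP targets and partners and 10 tested calcineurin partners and inhibitors was called by limma, with 4, 1 and 1 at an unadjusted p under 0.05 (24.9% of all genes). In M1 and in M3 against MNC, none of the 65 was called by limma, with 4 each at an unadjusted p under 0.05 (5.94% and 9.43% of all genes). M5 against M1 gave 2 higher (Pkib 0.57 and Ppp1r2 0.30) and 3 lower (Cabyr -0.36, Ropn1l -0.33 and Ropn1 -0.32) of the 65, where 3.23% of all genes were called higher and 3.52% lower. In MNC against Con, 21 of the 65 were called, where 20.4% of all genes were. Of these, 8 were higher (8.03% of all genes), led by Spz1 (0.68) and Cabyr (0.46), and 13 lower (12.4% of all genes), led by the calmodulin gene Calm2 and the PP1 subunit Ppp1cb (both -0.34). The calcineurin subunit Ppp3ca was lower as well, at -0.25 (limma adjusted p = 0.0314). M5 against M3 and M1 against M3 gave none by limma, with 9 and 3 of the 65 at an unadjusted p under 0.05 (14.3% and 4.63% of all genes).

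Across the 15 libraries, which share groups, injection and cell makeup, the closest pairs among the 10 genes on the log2 scale were Prkaca and Gsk3a (Pearson's r = 0.92), Spata33 and Gsk3a (-0.91), Prkaca and Spata33 (-0.85) and Adcy10 and Prkar2a (0.81). Ppp3cc and Spata33 gave 0.65. For deviations from group means, r was 0.78 for Prkaca and Gsk3a, -0.75 for Spata33 and Gsk3a and -0.61 for Prkaca and Spata33. It was 0.33 for Adcy10 and Prkar2a and 0.81 for Ppp3cc and Spata33. These are descriptions over 15 points that are not independent. Outside the 10, the genes with the pattern most like Prkaca were Zer1 (r = 0.970) and Fabp3 (0.966), and those most like Gsk3a were Klc2 (0.976) and Cdk2 (0.973). Pearson's r does not measure the size of a change. The geometric mean of Fabp3 was 55.4 FPKM in MNC and 0.225 in M5, while the M5 mean of Prkaca was 0.745 times that of MNC. Prkar2a was matched most closely by Habp4 (0.988) and Spata33 by 1700015G11Rik (0.959) and Pkib (0.952). For Gpr3 these were Tekt5 (0.945) and Nup214 (0.940), for Adcy10 Srpk2 (0.956) and Syce2 (0.952), and for Ppp3cc Larp7 (0.953) and Lztfl1 (0.952). Prkar1a was nearest to Sdha (0.953) and Dld (0.949). The closest matches of Ppp3r2 (Atf2, 0.889) and Ppp1cc (Sfswap, 0.851) were weaker.

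The remaining members lie as follows on GRCm38.p6. Adcy10 (gene ID 271639) is at chr1:165483518-165576778, Prkar1a (19084) at chr11:109649023-109669663, Prkar2a (19087) at chr9:108692143-108750444, Spata33 (320869) at chr8:123212837-123222045 and Ppp1cc (19047) at chr5:122154967-122175273, all on the plus strand. Ppp3cc (19057) is at chr14:70217864-70289536, Ppp3r2 (19059) at chr4:49678747-49681983 and Gsk3a (606496) at chr7:25228258-25237851, on the minus strand.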

How the data were processed

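The libraries were made from oligo(dT)-selected RNA and sequenced on an Illumina instrument, per the study's methods. The submitters' processing notes name SOAPaligner 2.20 and the build mm10; the gene annotation is not given in the sources used here. The authors deposited FPKM values per gene, a unit already divided by length and library size (their methods call it RPKM), so the count test they used could not be applied. All 15 columns were used, and 0 columns lacked a sample.

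Gene IDs were matched to RefSeq (21143 of 23510, 89.9%; 2208 IDs were the submitters' own unannotated transcripts). Values were tested as log2(FPKM + 1) for the 14514 genes with a mean of at least 1 FPKM, with limma 3.58.1 in R 4.3.3 (two-sided, trended variance, only the 2 groups compared in each fit) and Benjamini-Hochberg adjustment over all of them. A call is an adjusted p under 0.05. The code was tested on simulated data. Python 3.11.15, pandas 2.3.3, numpy 2.4.6, scipy 1.17.1 and matplotlib 3.10.9 were used for summaries, shares, ratios and figures, which have no test.

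Named were all 10 members in every comparison, and from the list of 75 further pathway genes those called, at most 5 each way by size. The genes most like a member were the 2 with the highest Pearson correlation over the 15 libraries. Members and lists were chosen with earlier results of these data known.

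The alternatives were a pseudocount of 0.1, a filter of 0.1 FPKM or none, median centring, quantile normalization, removal of the GC trend (GC known for 13364 genes, 92.1%), eBayes without trend, all 5 groups in one fit, a replicate block, Con as the control, the study's threshold (adjusted p of 0.001 and log2 of 1) and each replicate left out.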

Additional observations from a re-analysis of the deposited data

Results flagged for a closer look

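Prkaca differed between knockdowns: its log2 difference between M5 and M1 testes, which share the MNC control, was -0.37 (limma adjusted p = 0.0140), with all 3 M5 libraries below all 3 M1 libraries. Groups of 3 were too small for a check of single outlying samples.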

How the results depend on the processing

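In M5 against MNC, 2 members were called. The count was 1 with no filter (Prkaca, with Gpr3 lost), 0 with libraries centred on the median, 0 with the GC trend removed, 5 with all 5 groups in one fit, 6 with Con as the control, 0 at the study's threshold and 0 to 4 with each replicate left out (4 without M5 replicate 3, 0 without M5 replicate 1 or 2 or MNC replicate 2 or 3). With Con as the control, M1 gave 6 and M3 gave 2 in place of 0, and both stayed at 0 with each replicate left out. MNC against Con gave 3, but 0 at the study's threshold and 0 to 4 with each replicate left out (0 without MNC replicate 2, Con replicate 1 or Con replicate 2, 1 without MNC replicate 3, 4 without MNC replicate 1). M5 against M1 gave 1, but 0 with centring, 2 with quantile normalization, 0 at the study's threshold and 0 to 4 with each replicate left out (4 without M5 replicate 3, 0 without M5 replicate 2, M1 replicate 1 or M1 replicate 3). M5 against M3 and M1 against M3 gave 0 throughout, and the test over all 5 groups gave 7, or 4 to 8 with each replicate left out (8 without M3 replicate 3, 4 without Con replicate 1, Con replicate 2 or M5 replicate 1). The cause of these changes was not tested, beyond the smaller number of libraries where one was left out.

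Prkaca kept its direction in M5 against MNC in all 15 alternatives that keep MNC as control (-0.45 to -0.31, called in 8, limma adjusted p 0.0073 to 0.0903), as did Gpr3 (-1.49 to -0.74, called in 7, 0.00806 to 0.113). In M5 against M1, Prkaca was called in 10 of 15. In MNC against Con, Adcy10 was called in 11 of 15, Ppp3r2 in 7 and Spata33 in 4, in 1 direction each.

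Replicate numbers do not pair the samples: correlations of deviations from group means ran from -0.40 to 0.18, and in no comparison did every pair exceed 0.1. With the numbers as a replicate block, 0 members were called in M5 against MNC, in MNC against Con and in M5 against M1, and 5 over all groups. Samples correlated best with their own number in at most 4 of 6 cases, a count reached in M5 against MNC and in M1 against M3.

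Among the 36 results called in at least 1 setting, directions turned for differences near 0 or when Con replaced MNC. For M5 against MNC this was Adcy10 (0.26 with Con as the control, -0.090 to 0.026 with each replicate left out). For M1 against MNC these were Prkar1a (-0.0027 with quantile normalization, -0.0093 with the GC trend removed, -0.17 with Con, -0.020 to 0.035 with each replicate left out), Prkar2a (-0.030 to 0.069 likewise), Ppp3r2 (-0.16 with Con), Spata33 (-0.026 to 0.073 likewise) and Gsk3a (0.010 with the GC trend removed). For M3 against MNC these were Adcy10 (0.051 with centring, 0.29 with Con, -0.071 to 0.027 with each replicate left out) and Prkar2a (-0.028 to 0.097 likewise). These values cover the 36 results called in at least 1 setting, for which 505 of 628 alternative values kept direction and side of the threshold, and 76 fell below it. Another 44 results were called in no setting, and 45 of their 682 values changed sign. One was Ppp3r2 in M5 against MNC, at -0.062 in the main fit and 0.039 without M5 replicate 3. Spata33 in M3 against MNC, at 0.12 with all libraries, was negative without M3 replicate 3. No absolute depth was known, so no counting limit is given for low genes such as Gpr3.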
